A study of Mus musculus with 25 samples.

Results

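Expression of 10 genes of fatty acid elongation and desaturation was followed through mouse liver and liver tumors: the elongases Elovl1, Elovl2, Elovl3, Elovl5, Elovl6 and Elovl7, the stearoyl-CoA desaturases Scd1 and Scd2, and the fatty acid desaturases Fads1 and Fads2. They were chosen by name as the enzymes that lengthen or unsaturate fatty acyl chains, and all 10 were found among the 48795 genes measured. The 25 RNA libraries were made from males of the inbred mouse strain C57BL/6J. Diethylnitrosamine (DEN), which hepatocytes convert to a DNA-damaging form, was injected into the peritoneum at 25 mg/kg when the mice were 2 weeks old, and diets began at weaning. The diets were a western-like diet (WD, AIN-76A from TestDiet) and a control diet (CD, AIN-93G from TestDiet), and tissue for RNA was taken at 36 weeks of age, or at 36 to 39 weeks by another description of the harvest.

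The groups were liver of uninjected mice on CD (nonDEN-L-CD, n = 3), its WD counterpart (nonDEN-L-WD, n = 4), whole liver after DEN on CD (DEN-L-CD, n = 4), liver next to tumors in DEN-injected mice on WD (DEN-PT-WD, n = 8) and the tumors themselves (DEN-T-WD, n = 6). Tumors of DEN-injected mice on CD were too small to be cut out, so that DEN-L-CD is liver which may hold small tumors. Between DEN-L-CD and DEN-PT-WD, diet and the tissue sampled, whole liver or liver beside tumors, therefore cannot be told apart. The labels do not say whether libraries of a group came from separate mice, or whether a mouse gave several tumors. Nor do they say whether tumors and DEN-PT-WD liver came from the same mice, and the main test takes them as unpaired. P-values measure only the spread between these libraries. Libraries held 21530083 to 38074411 expected counts. The summed level of 10 hepatocyte markers, among them Alb and Apoa1, ran from 55900 to 85200 TPM in the liver libraries and from 120000 to 141000 in 5 tumors, while tumor replicate 5 stood apart at 38400. Calls on the 10 genes that change without this tumor are given both ways. The sum did not stand for each hepatocyte marker. By the test given below, tumors had 3 of the 10 markers higher and 5 lower than DEN-PT-WD (median log2 difference -0.61). Of all tested genes, 19.5% were higher and 18.1% lower there. Against nonDEN-L-WD, 2 markers were higher and 6 lower (median -0.85), where 25.9% and 23.1% of all tested genes were. TPM gives a transcript as its share of all transcripts of a library, scaled to a fixed total and corrected for length, so that levels of different genes can be set side by side, whereas fold changes come from counts scaled between libraries. These are bulk tissues, in which fewer cells of a type and less RNA per cell cannot be told apart.

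Cells make or take up palmitate and then change it along a few routes. Elovl6 lengthens palmitate to stearate, and the Scd enzymes place a double bond in both to make the monounsaturated palmitoleate and oleate of stored fat and membranes. Elovl1, Elovl3 and Elovl7 extend saturated and monounsaturated chains to very long lengths, which are built into sphingolipids, waxes and other lipids. Fads2, Elovl5, Fads1 and Elovl2 act on the essential fatty acids of the diet and produce the polyunsaturated fatty acids of which liver is a main source.

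Scd1 and Scd2 lie near each other on chromosome 19 of GRCm38, at chr19:44394455-44407879 on the minus strand and chr19:44293674-44306864 on the plus strand. Their coding sequences are alike, and reads from a shared stretch cannot be given to either gene with certainty. The longest stretch common to both is shown because the levels of the pair are compared below. It spans 147 bases, at bases 523 to 669 of the Scd1 coding sequence and bases 532 to 678 of that of Scd2 (GENCODE M21 transcripts), and carries no capitals because no motif was searched in it.

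Scd1 and Scd2, shared coding bases: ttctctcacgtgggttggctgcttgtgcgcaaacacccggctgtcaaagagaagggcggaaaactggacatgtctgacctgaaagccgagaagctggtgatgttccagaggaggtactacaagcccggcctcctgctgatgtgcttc

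Of the 50-base words in the transcripts of Scd2, 3.97% were held by other genes, mainly Scd1. For Scd1 the share was 4.56%, mainly with Scd3. Elovl6 shared 3.98% with other genes, mainly the gene model Gm11295, and Fads2 shared 0.15%, mainly with Fads3. No such word was shared for Elovl1, Elovl2, Elovl3, Elovl5, Elovl7 or Fads1. Elovl1 (chr4:118428093-118432953, plus strand) overlaps Cdc20 on the other strand, Elovl3 (chr19:46131897-46135694, plus strand) overlaps Pitx3, Elovl7 (chr13:108214404-108285683, plus strand) overlaps the gene models Gm30747 and Gm32376, and Elovl6 overlaps Gm35986, all on the other strand. On their own strand Elovl6 overlaps Gm43072, Scd2 overlaps Mir5114 and Fads1 overlaps Mir6993. Whether counting used the strand of the reads is not given in the sources used here, so that reads from these overlaps cannot be told apart.

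Elovl1 and Elovl7 were the elongases that passed the test given below as higher in tumors than beside them. The bases before a RefSeq start site of each (GRCm38.p6) are shown for that reason. Capitals mark the GC box (GGGCGG) and the CCAAT box (CCAAT) on either strand, and in Elovl1 the CCAAT box overlaps a GC box.

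Elovl1, chr4:118427843-118428092, plus strand: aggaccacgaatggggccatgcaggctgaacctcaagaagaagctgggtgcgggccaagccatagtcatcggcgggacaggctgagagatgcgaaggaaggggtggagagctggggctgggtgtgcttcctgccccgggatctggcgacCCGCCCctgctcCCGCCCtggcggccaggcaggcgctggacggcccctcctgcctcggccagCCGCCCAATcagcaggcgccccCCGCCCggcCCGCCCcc

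Elovl7, chr13:108214154-108214403, plus strand: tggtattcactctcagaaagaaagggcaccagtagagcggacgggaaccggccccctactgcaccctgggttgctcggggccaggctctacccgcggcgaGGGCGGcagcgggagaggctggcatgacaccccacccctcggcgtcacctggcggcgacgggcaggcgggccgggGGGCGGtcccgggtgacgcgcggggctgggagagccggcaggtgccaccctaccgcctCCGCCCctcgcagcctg

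Elovl1 held 5 GC boxes and 1 CCAAT box in this window and Elovl7 held 3 GC boxes. A second Elovl1 window, at chr4:118429451-118429700 on the plus strand, held 2 GC boxes and no CCAAT box. Over 32851 windows of the same length in the same table, 32.7% held a GC box and 33.8% a CCAAT box. Promoter windows were found for 6 of the 10 genes. GC boxes were also found in a window of Elovl2 and of Fads2. The window of Elovl5 held 2 CCAAT boxes and 1 E-box (CACGTG), and 6.02% of all windows held that E-box. The sterol response element (TCACNCCAC), held by 1.05% of windows, was found in none of the 6 genes. These matches describe letters only.

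Scd2 and Elovl3 changed in opposite directions. Mean Scd2 was 1.14 TPM in untreated liver on CD and 75.6 TPM in tumors, whereas mean Elovl3 was 139 and 12.2 TPM, and the order of the 5 groups by mean was the reverse for the pair. Elovl1 and Elovl7 were higher in tumors than in either WD liver. Scd1 was lower, but its range in tumors overlapped that of each WD liver. Against peritumoral liver 3 of 20 alternatives lost the call on Scd1. Of the 10 genes, 5 passed the test in at least 1 of the 6 comparisons, and Elovl2, Elovl5, Elovl6, Fads1 and Fads2 passed in none. A gene is said to have changed where edgeR's quasi-likelihood test, with Benjamini-Hochberg adjustment over 15625 genes, gave an adjusted p of at most 0.05.

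**Figure D1:**
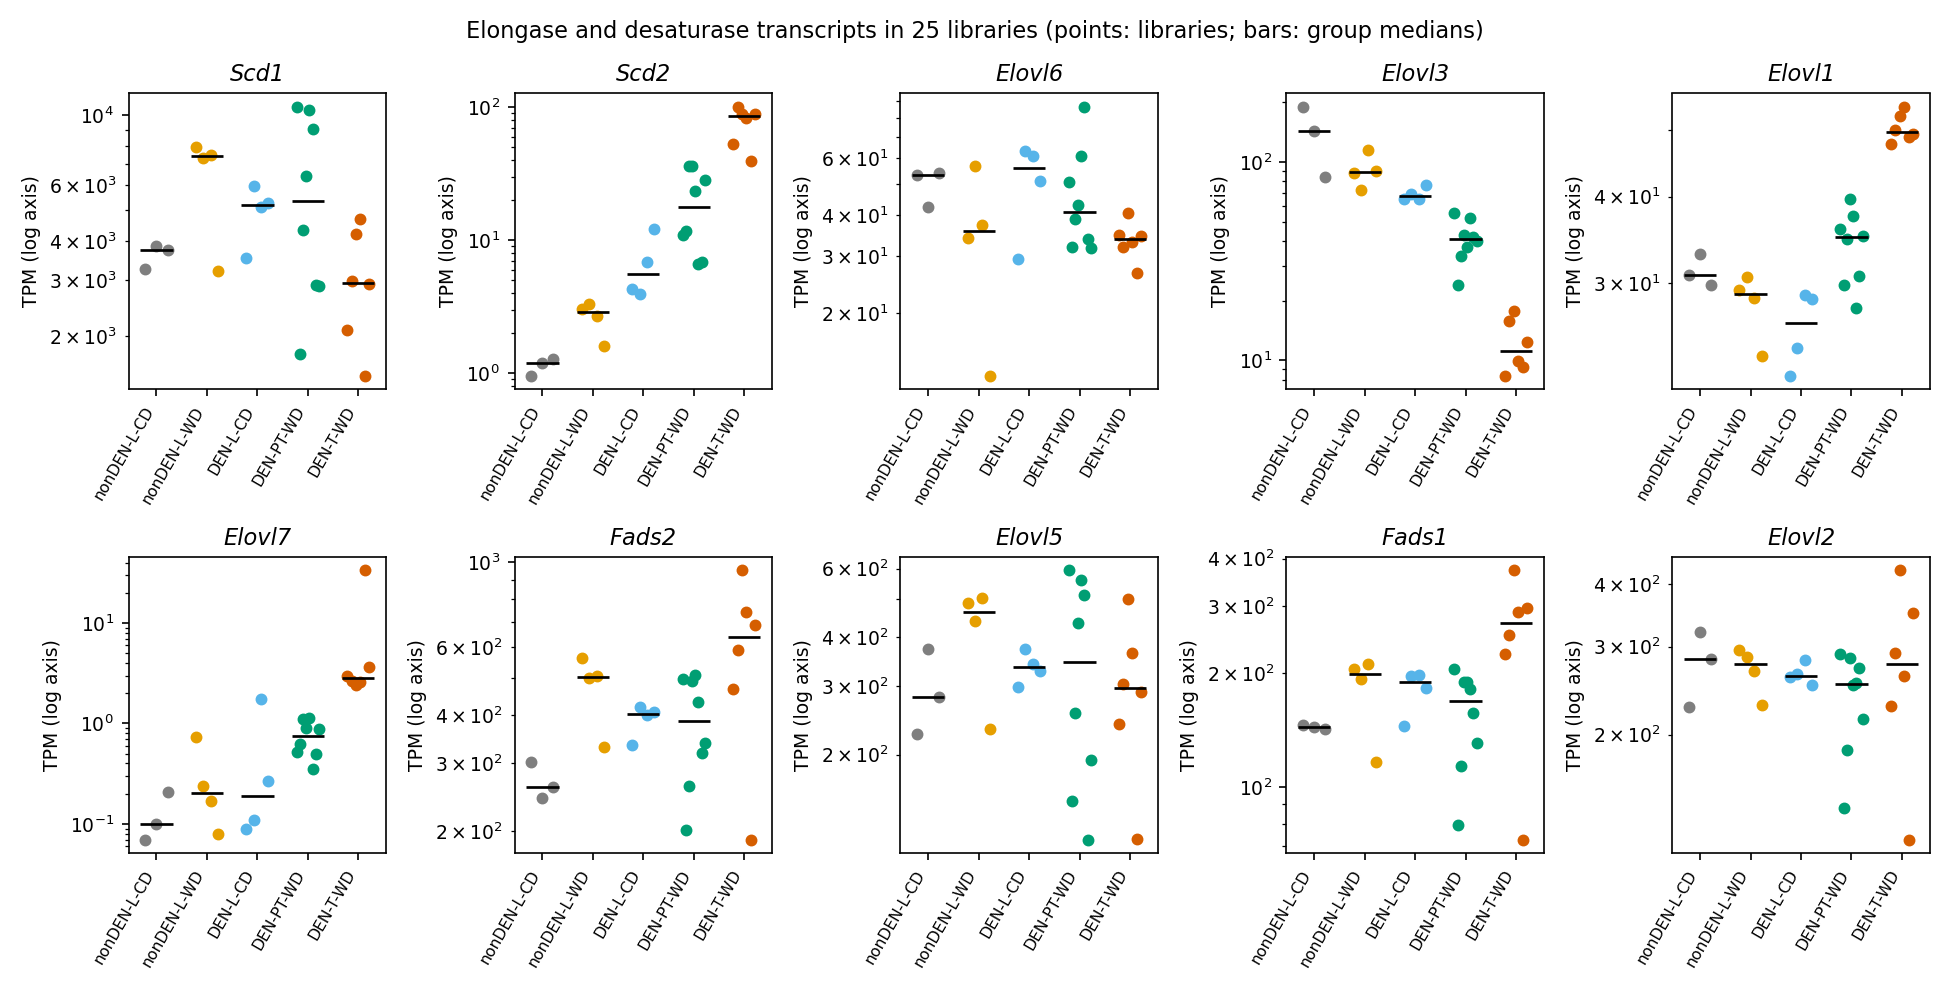
Levels of the 10 genes in TPM on log axes, with 1 point per library, grouped by tissue, and a bar at each group's median. Scd2 lies between 39.1 and 101 TPM in the 6 tumors and at or below 1.27 TPM in the 3 nonDEN-L-CD livers, Elovl3 lies between 8.34 and 17.6 TPM in tumors and above 84 TPM in nonDEN-L-CD, and 1 tumor stands far above the others for Elovl7.

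WD against CD in untreated liver changed 1 of the 10 genes (Elovl1, lower) and none at least 2-fold, where 23.2% of all tested genes changed (11.2% higher, 12.0% lower), 5.28% at least 2-fold. DEN against no DEN on CD changed 3 (1 higher, 2 lower), 2 of them at least 2-fold, where 21.3% of all genes changed (9.12% higher, 12.2% lower), 4.7% at least 2-fold. With 1 library left out this count ran from 1 to 3 (1 to 2 at least 2-fold). Peritumoral liver differed from untreated WD liver in 2 genes (1 higher, 1 lower), both at least 2-fold, where 12.4% of all genes changed (7.5% higher, 4.87% lower), 2.76% at least 2-fold. It differed from DEN-L-CD in 1 (lower), by at least 2-fold, where 10.6% of all genes changed (6.8% higher, 3.76% lower), 1.9% at least 2-fold. The median log2 difference of the 10 genes in these 4 comparisons was 0.28, 0.22, -0.37 and -0.30, while that of all tested genes lay between 0.00 and 0.02.

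Tumors differed from peritumoral liver in 5 of the 10 genes (3 higher, 2 lower), where 37.7% of all tested genes changed (19.5% higher, 18.1% lower). They differed from untreated WD liver in 5 as well (3 higher, 2 lower), where 49.0% changed (25.9% higher, 23.1% lower). In each, 4 of the 10 changed at least 2-fold, against 7.9% and 15.7% of all genes. Without tumor replicate 5 the former count was 3, since Scd1 fell short of 2-fold. The median of the 10 was 0.29 in the former and -0.12 in the latter, beside 0.01 and 0.02 for all genes. Each of the 5 groups enters more than 1 comparison, so that the comparisons are not independent of each other. Whether DEN acted differently on WD than on CD was tested as an interaction. Its DEN arm was peritumoral liver on WD and whole liver on CD, so that it also mixes diet with the tissue sampled. No gene of the 10 passed it (edgeR), where 8.39% of all genes did (4.65% higher, 3.74% lower), 2.75% at least 2-fold. For 2 of the 10, Elovl1 and Fads2, the unadjusted p was under 0.05, and with DESeq2 none of the 9 genes given an adjusted p passed. Fads2 (-1.03 ± 0.45, adjusted p = 0.163) passed with only the groups compared (-1.03, adjusted p = 0.0351).

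In normalized counts, 3 of the 10 genes had groups that did not overlap between CD and WD in untreated liver (Scd2 and Fads2 higher, Elovl1 lower), where 15.6% of all genes were higher and 15.2% lower without overlap. With DEN on CD these were 4 (Scd2 and Fads2 higher, Elovl1 and Elovl3 lower), beside 17.2% and 17.1%. Peritumoral liver stood clear of untreated WD liver for 3 (Scd2 higher, Elovl2 and Elovl3 lower), beside 3.8% and 2.92%, and of DEN-L-CD for 2 (Elovl2 and Elovl3 lower), beside 4.38% higher and 3.07% lower. Tumors stood clear of peritumoral liver for 3 (Elovl1 and Elovl7 higher, Elovl3 lower), beside 4.28% and 5.17%, and of untreated WD liver for 4 (Elovl1, Elovl7 and Scd2 higher, Elovl3 lower), beside 15.8% and 15.5%.

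**Figure D2:**
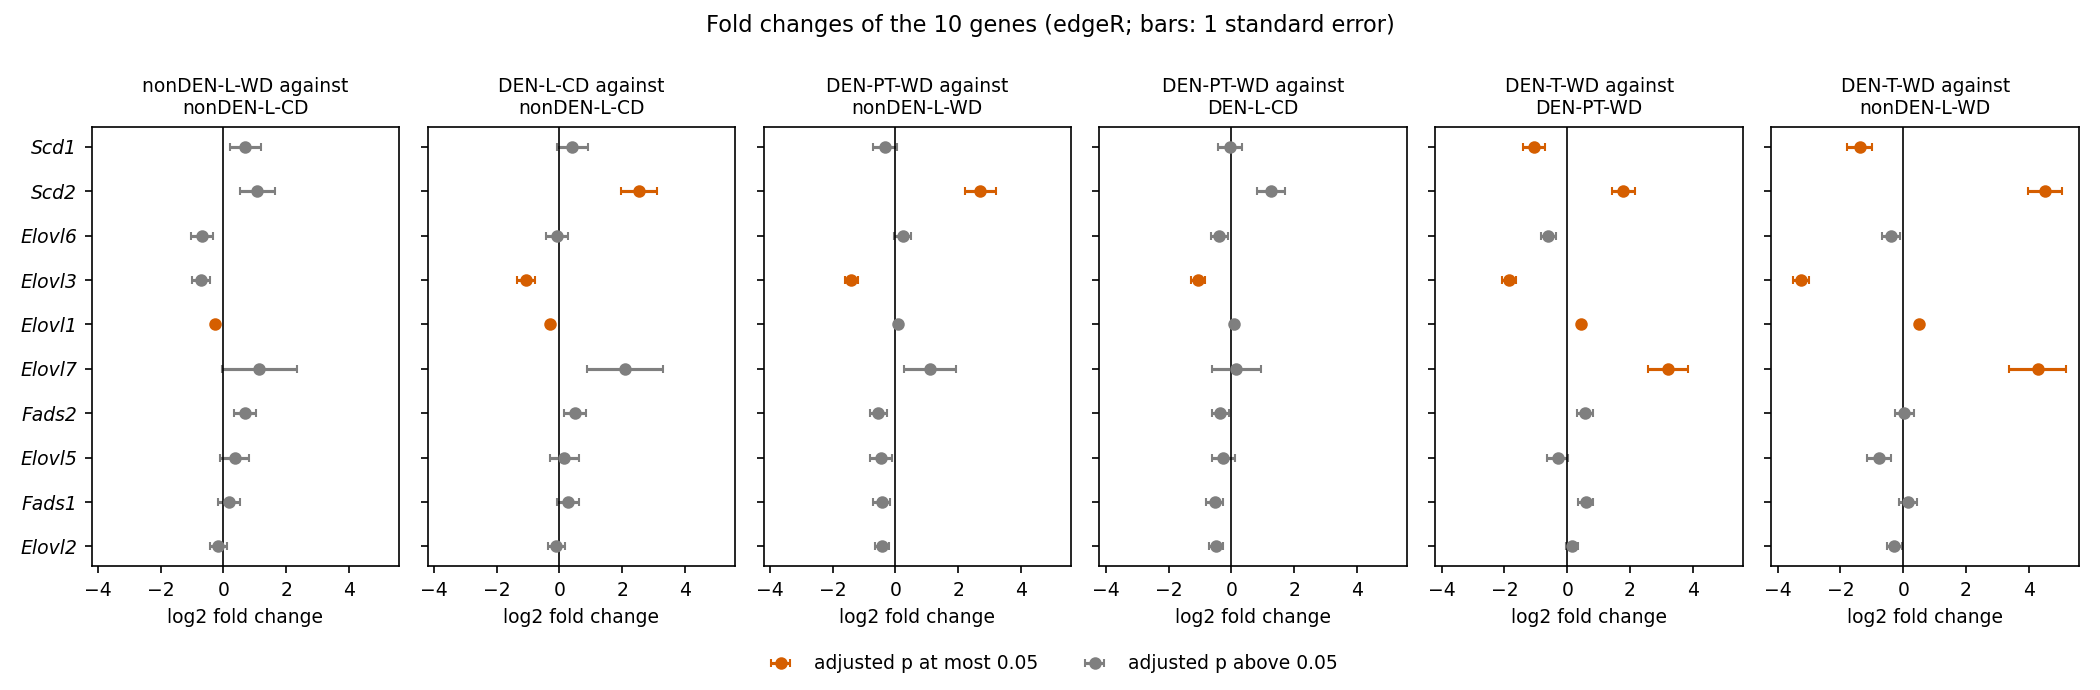
Log2 fold changes of the 10 genes in 6 comparisons, with bars of 1 standard error, orange where the adjusted p was at most 0.05 and gray otherwise. Scd2 sits to the right of 0 in every panel, up to 4.51, and Elovl3 to the left, down to -3.26, and the 4 genes at the bottom, those of the polyunsaturated route, stay gray.

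Scd1, the main desaturase of adult liver and a target of insulin and carbohydrate signalling, was the most abundant of the 10 in each group. It made up 73.5% to 76.7% of their summed TPM in nonDEN-L-CD and 61.5% to 71.8% in tumors. In nonDEN-L-CD its level was 3262, 3847 and 3738 TPM. In nonDEN-L-WD 3 libraries held 7949.6, 7323 and 7509 TPM, and replicate 4 held 3201 TPM, which is below each nonDEN-L-CD library. The difference with diet, a log2 fold change of 0.69 ± 0.49 (SE), did not pass (edgeR, adjusted p = 0.327), and without replicate 4 it was 0.88 (adjusted p = 0.221).

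DEN-L-CD held 3538, 5984, 5106 and 5262 TPM of Scd1. Peritumoral liver was spread most widely, from 1759 to 10628 TPM with a median of 5361, and tumors ran from 1492 to 4690.4 TPM with a median of 2951. The ranges of tumors and peritumoral liver overlapped, with 3 peritumoral libraries at 9016 to 10628 TPM and 3 at 1759 to 2893 TPM. Scd1 was lower in tumors than in peritumoral liver by a log2 fold change of -1.06 ± 0.35 (edgeR, adjusted p = 0.0198) and lower than in untreated WD liver by -1.39 ± 0.40 (adjusted p = 0.00657). The former did not pass with only both groups in the fit (-1.06, adjusted p = 0.0619) or on log2(TPM + 1) values (-0.82, 0.0853). Nor did it pass with replicate number as a block in edgeR (-1.21, adjusted p = 0.128). It was short of 2-fold without DEN-PT-WD replicate 1, 5 or 6 or without tumor replicate 1 or 5 (-0.96 to -0.91), and without tumor replicate 5 it was -0.91 (adjusted p = 0.041).

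Scd2 encodes a second desaturase of the same reaction, best known from brain and from the livers of newborns. It was barely present in untreated liver, at 0.95, 1.19 and 1.27 TPM on CD and at 3.06, 3.29, 2.71 and 1.61 TPM on WD. On CD with DEN it held 4.29, 3.92, 6.89 and 12.2 TPM. It ran from 6.67 to 36.4 TPM in peritumoral liver (median 17.6) and from 39.1 to 101 TPM in tumors (median 85.9). No DEN-treated library was as low as an untreated one, and in TPM no tumor was as low as a peritumoral library, although in normalized counts the lowest tumor and the highest peritumoral library crossed.

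DEN on CD raised Scd2 by a log2 fold change of 2.53 ± 0.58 (edgeR, adjusted p = 0.00365), and without DEN-L-CD replicate 4, its highest library, the value was 2.11 (adjusted p = 0.0133). Peritumoral liver was higher than untreated WD liver by 2.71 ± 0.48 (adjusted p = 0.00177). Tumors were higher than peritumoral liver by 1.79 ± 0.36 (adjusted p = 0.000511) and higher than untreated WD liver by 4.51 ± 0.54 (adjusted p = 6.65e-07), which is 22.7-fold. In these comparisons every alternative kept the call. WD against CD in untreated liver gave 1.08 ± 0.56 (adjusted p = 0.168). Peritumoral liver against DEN-L-CD, which mixes diet with the tissue sampled, gave 1.26 ± 0.44 (adjusted p = 0.0662). The latter passed when DEN-L-CD replicate 4 (1.69, adjusted p = 0.0437), DEN-PT-WD replicate 6 (1.39, 0.0303) or DEN-PT-WD replicate 7 (1.39, 0.0332) was left out, and also with DESeq2 (0.0259) and on log2(TPM + 1) values (0.0147). The former passed with only both groups in the fit (0.00747).

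Scd2 stayed the minor transcript of the pair in every library. Scd2 was 0.0313% ± 0.0025 (SD, n = 3) of the summed Scd1 and Scd2 TPM in nonDEN-L-CD, 0.0424% ± 0.0064 (n = 4) in nonDEN-L-WD and 0.138% ± 0.069 (n = 4) in DEN-L-CD. It was 0.459% ± 0.345 (n = 8) in peritumoral liver and 2.51% ± 0.55 (n = 6) in tumors, where it ran from 1.75% to 3.25%. The highest peritumoral library, at 0.979%, was below the lowest tumor. Scd2 was highest in the group with the lowest mean Scd1, and within groups the pair had a Pearson r of 0.22 over 25 libraries (log2 CPM, group means subtracted). With expected counts in place of TPM the tumor share was 2.82%.

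Markers of other cell types moved with part of the Scd2 result. Between untreated WD liver and peritumoral liver, 4 of 10 leukocyte and macrophage markers were higher and none lower (summed level 150 to 300 against 229 to 479 TPM), as were 5 of 10 stellate and fibroblast markers (167 to 275 against 273 to 527 TPM), 4 of 8 endothelial markers (101 to 161 against 167 to 211 TPM) and 1 of 7 bile duct markers (49.5 to 76.1 against 79.1 to 332 TPM), where 7.5% of all tested genes were higher and 4.87% lower. Between peritumoral liver and tumors, 1 leukocyte marker was higher and 1 lower (229 to 479 against 248 to 620 TPM), 4 stellate markers were higher and 3 lower (273 to 527 against 262 to 363 TPM), 1 endothelial marker was higher and 3 lower (167 to 211 against 160 to 196 TPM), and 3 of 7 bile duct markers were higher (79.1 to 332 against 393 to 843 TPM), of which Spp1 alone ran from 372 to 817 TPM in tumors while Krt19 averaged 3.73 TPM in peritumoral liver and 2.43 TPM in tumors. Of all tested genes 19.5% were higher and 18.1% lower there. None of these markers was at 0 in every library of a group. Adipocyte markers, of which Lep and Ucp1 were at 0 in nonDEN-L-CD, summed to 8.53 to 11.9 TPM there, 35.0 to 89.5 in nonDEN-L-WD, 26.5 to 38.7 in DEN-L-CD, 30.6 to 101 in peritumoral liver and 14.4 to 55.4 in tumors, where 2 of 8 were lower than in peritumoral liver. Pancreatic acinar markers varied between libraries of every group, from 9.74 to 6420.0 TPM in peritumoral liver. Between nonDEN-L-CD and DEN-L-CD, where Scd2 rose, 1 leukocyte marker was higher and 1 lower, 1 stellate marker was higher, 1 endothelial and 1 bile duct marker were lower, and 1 of 8 adipocyte markers was higher (median log2 difference 2.23), where 9.12% of all tested genes were higher and 12.2% lower. Elovl3 fell between DEN-L-CD and peritumoral liver. There 4 of 10 leukocyte, 4 of 10 stellate, 6 of 8 endothelial and 1 of 7 bile duct markers were higher. No marker of these lists was lower, where 6.8% of all tested genes were higher and 3.76% lower. The part of these cells in the Scd2 and Elovl3 results was not tested.

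**Figure D3:**
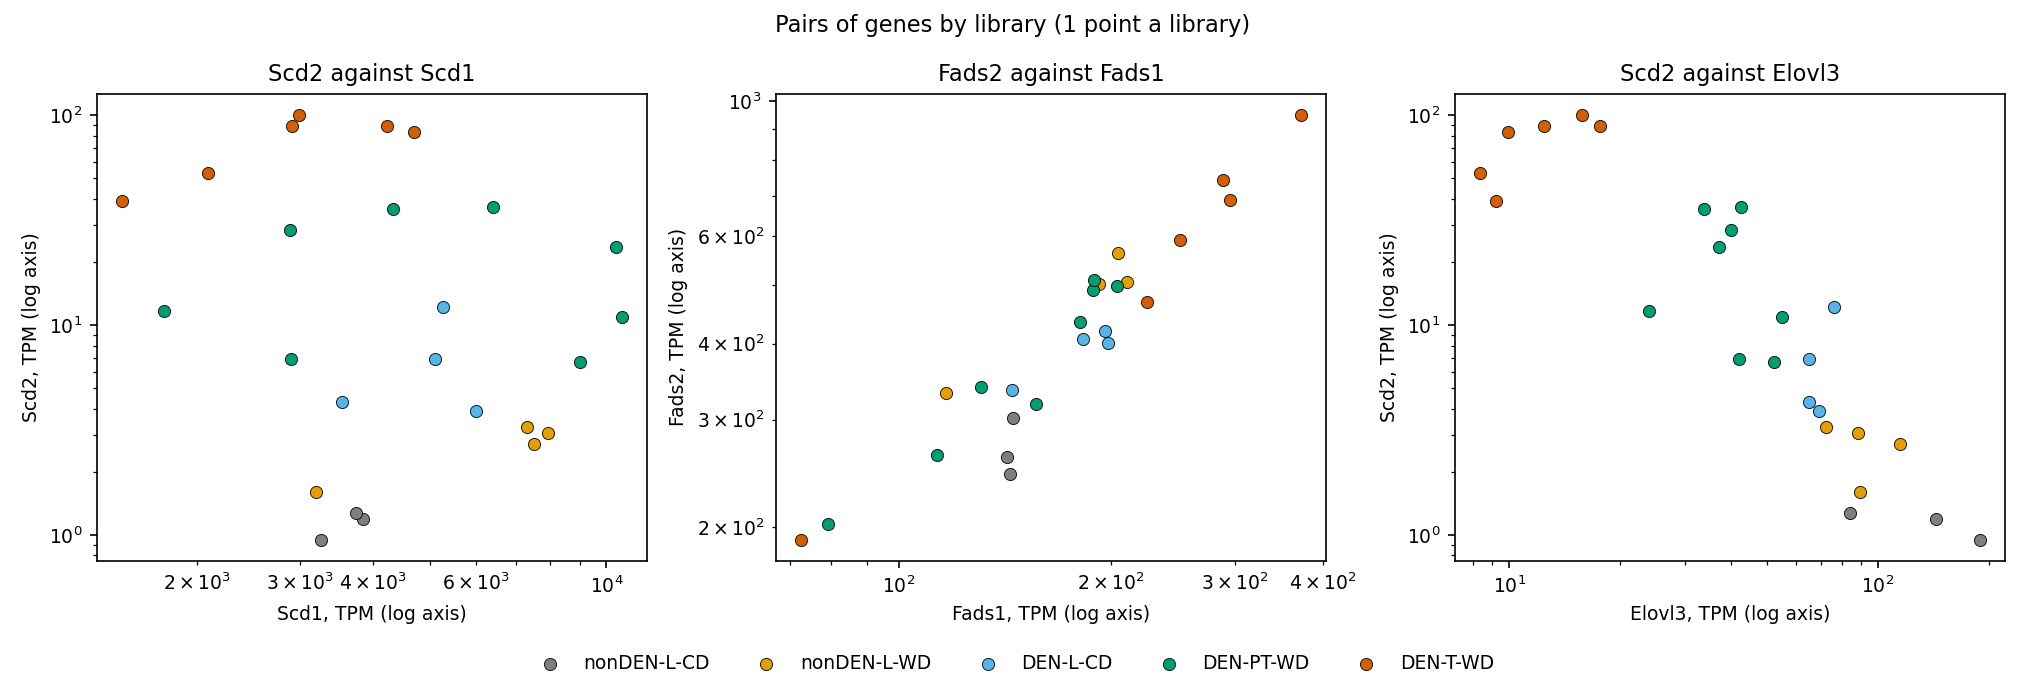
Levels of 3 pairs of genes in TPM on log axes, with 1 point per library colored by group. In the left panel Scd2 runs over groups from 0.95 to 101 TPM with no matching order in Scd1, in the middle panel Fads2 and Fads1 lie along a line, and in the right panel tumors lie at low Elovl3 (8.34 to 17.6 TPM) and high Scd2.

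Elovl6, the elongase between palmitate and stearate and a lipogenic gene under SREBP-1c, was at 53.2, 42.5 and 53.9 TPM in nonDEN-L-CD and at 34.05, 56.9, 37.3 and 12.8 TPM in nonDEN-L-WD. DEN-L-CD held 29.2, 63.1, 60.8 and 51.2 TPM, peritumoral liver 31.6 to 86.5 TPM (median 41.0) and tumors 26.6 to 40.7 TPM (median 33.9). The groups overlapped in each of the 6 comparisons. Tumors and peritumoral liver differed by -0.61 ± 0.24 on the log2 scale, and the edgeR adjusted p rounds to 0.05 but lies just above the threshold. It passed with DESeq2 (adjusted p = 0.0299), with only both groups in the fit (0.033), and without any one of 4 libraries (0.0365 to 0.0429). The ratio of Scd1 to Elovl6 in TPM was 73.7 ± 15.1 (SD, n = 3) in nonDEN-L-CD, 204 ± 54 (n = 4) in nonDEN-L-WD, 101 ± 15.6 (n = 4) in DEN-L-CD, 122 ± 50.6 (n = 8) in peritumoral liver and 89.8 ± 31.5 (n = 6) in tumors.

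Elovl3, an elongase of saturated and monounsaturated chains known in mouse liver for a daily rhythm and for higher levels in males, was at 189, 144 and 84.2 TPM in nonDEN-L-CD. It was at 88.1, 72.2, 114.6 and 89.5 TPM in nonDEN-L-WD and at 65.0, 69.1, 64.9 and 76.2 TPM in DEN-L-CD. Peritumoral liver ran from 23.9 to 54.9 TPM (median 41.0) and tumors from 8.34 to 17.6 TPM (median 11.2). The highest tumor was below the lowest peritumoral library, and the highest peritumoral library was below every library of the other liver groups.

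Elovl3 fell with DEN on CD by a log2 fold change of -1.06 ± 0.28 (edgeR, adjusted p = 0.00945), but without nonDEN-L-CD replicate 1, the highest library, the value was -0.74 and did not pass (adjusted p = 0.076). It was lower in peritumoral liver than in untreated WD liver (-1.40 ± 0.22, adjusted p = 0.000822) and than in DEN-L-CD (-1.06 ± 0.22, adjusted p = 0.00537). It was lower in tumors than in peritumoral liver (-1.86 ± 0.22, adjusted p = 1.28e-06) and than in untreated WD liver (-3.26 ± 0.25, adjusted p = 2.55e-09), which is 9.56-fold. These latter 4 differences held under all alternatives. WD against CD in untreated liver gave -0.72 ± 0.28 (adjusted p = 0.0648), which passed with DESeq2 (0.0442) and without nonDEN-L-CD replicate 3 (-0.98, adjusted p = 0.0255).

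Of 9 other genes with a known male bias in liver, 2 fell between untreated WD liver and peritumoral liver, 4 between DEN-L-CD and peritumoral liver, 6 between peritumoral liver and tumors and 8 between untreated WD liver and tumors, and none rose. Of all tested genes, 4.87%, 3.76%, 18.1% and 23.1% were lower in these comparisons. Their median log2 differences were -0.85, -0.83, -0.91 and -1.74. Susd4, a complement regulator, fell by 1.49 ± 0.26 on the log2 scale between peritumoral liver and tumors (edgeR, adjusted p = 0.000139), Cyp2d9, a testosterone hydroxylase, by 0.91 ± 0.14 (3.46e-05), and Cyp7b1, an oxysterol hydroxylase, by 1.52 ± 0.35 (0.00175). Of 10 genes with a known female bias, 4 rose between untreated WD liver and peritumoral liver and none fell, 2 rose between DEN-L-CD and peritumoral liver, and 6 rose between untreated WD liver and tumors, where 7.5%, 6.8% and 25.9% of all tested genes were higher. Between peritumoral liver and tumors Cyp2a4, a steroid hydroxylase, rose (2.29 ± 0.68, adjusted p = 0.0112) and Acot3, a peroxisomal thioesterase, fell (-1.52 ± 0.60, adjusted p = 0.0497). Against nonDEN-L-CD no male-biased gene passed with WD or with DEN, and 2 female-biased genes rose with each, where 12.0% and 12.2% of all tested genes were lower and 11.2% and 9.12% higher.

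Of 15 clock genes, 5 changed with WD in untreated liver (2 higher, 3 lower) and 4 with DEN on CD (1 higher, 3 lower), where 23.2% and 21.3% of all tested genes changed. Nfil3, a repressor in the clock's output, was lower by 1.65 with WD and by 1.63 with DEN on CD (edgeR, adjusted p = 1.01e-05 and 1.22e-05), and Arntl, the central activator, fell by 1.88 and by 1.95 on the log2 scale (adjusted p = 0.0018 and 0.00145). Clock, its partner, fell by 0.63 and by 0.81 (adjusted p = 0.000693 and 6.01e-05). Of the clock genes, 1 changed between untreated WD liver and peritumoral liver, none between DEN-L-CD and peritumoral liver (edgeR) and 5 between peritumoral liver and tumors (1 higher, 4 lower), where 12.4%, 10.6% and 37.7% of all tested genes changed. Nfil3 (1.40 ± 0.26, adjusted p = 0.00257) and Arntl (2.35 ± 0.52, 0.00763) passed the interaction of DEN with diet, as did 8.39% of all tested genes. The hour at which tissue was taken is not given in the sources used here. Its part in the Elovl3 values of nonDEN-L-CD was not tested. Hepatocyte markers moved as well between peritumoral liver and tumors, 3 of 10 higher and 5 lower (19.5% and 18.1% of all tested genes), with a median log2 difference of -0.61.

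Elovl1, an elongase of saturated very long chains that is expressed in most tissues, varied little within groups. Its level was 30.8, 33.0 and 29.9 TPM in nonDEN-L-CD, 29.3, 30.6, 28.6 and 23.6 TPM in nonDEN-L-WD and 22.03, 24.2, 28.9 and 28.4 TPM in DEN-L-CD. It was 27.6 to 39.7 TPM in peritumoral liver (median 35.0) and 47.7 to 53.9 TPM in tumors (median 49.6). All 6 tumors were above all 19 other libraries. Tumors were higher than peritumoral liver by a log2 fold change of 0.43 ± 0.07 (edgeR, adjusted p = 5.03e-05) and higher than untreated WD liver by 0.51 ± 0.08 (3.4e-05), and all alternatives kept both calls.

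In the other direction, Elovl1 was lower with WD in untreated liver (-0.27 ± 0.10, adjusted p = 0.0478) and lower with DEN on CD (-0.29 ± 0.10, adjusted p = 0.036). These 2 calls were not firm. The former did not pass without any one of the 7 libraries compared (adjusted p from 0.064 to 0.122) nor without the filter on low counts (0.132), nor on log2(TPM + 1) values (0.389). The latter did not pass without any one nonDEN-L-CD library, or without DEN-L-CD replicate 1 or 2 (0.0625 to 0.105), nor without the filter (0.0992), nor on log2(TPM + 1) values (0.126). The interaction of DEN with diet gave 0.38 ± 0.13 for Elovl1 (adjusted p = 0.0666), 0.41 without DEN-PT-WD replicate 6 (adjusted p = 0.0354) and 0.53 on log2(TPM + 1) values (0.0245).

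Elovl7, an elongase of saturated very long chains, was the least abundant of the 10 in every group. It was at 0.07, 0.10 and 0.21 TPM in nonDEN-L-CD, where a library held 7 to 22 expected counts, at 0.74, 0.24, 0.17 and 0.08 TPM in nonDEN-L-WD, and at 0.09, 0.11, 1.77 and 0.27 TPM in DEN-L-CD. Peritumoral liver ran from 0.35 to 1.14 TPM (median 0.75). The tumors held 2.94, 2.67, 2.44, 2.58, 33.4 and 3.67 TPM, and all of them were above every other library. Tumors were higher than peritumoral liver by a log2 fold change of 3.20 ± 0.64 (edgeR, adjusted p = 0.000448) and than untreated WD liver by 4.29 ± 0.91 (0.000509). Tumor replicate 5 set much of these sizes: without it they were 1.81 (adjusted p = 0.00467) and 2.91 (0.000848). Without nonDEN-L-WD replicate 1 the latter was 5.19 (0.000614). DESeq2 gave no adjusted p for Elovl7.

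The 4 genes of the polyunsaturated route passed no test, and their libraries varied widely. Fads2, the desaturase that begins the route, was at 302, 245 and 260.5 TPM in nonDEN-L-CD and at 563, 501, 505 and 331 TPM in nonDEN-L-WD, which do not overlap. DEN-L-CD held 336, 420.3, 402 and 407 TPM, also all above nonDEN-L-CD. The edgeR differences were 0.68 ± 0.36 (adjusted p = 0.179) and 0.49 ± 0.36 (adjusted p = 0.35), and with only both groups in the fit these passed (0.0174 and 0.0191). Peritumoral liver ran from 202 to 508 TPM (median 386) and tumors from 190.4 to 951 TPM (median 639), so that tumors held both the highest and the lowest library.

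Fads1, which acts later in the route and lies beside Fads2 on chromosome 19 (chr19:10182888-10196877, plus strand, and chr19:10062765-10101746, minus strand), was at 145, 144 and 142 TPM in nonDEN-L-CD and at 204, 192, 211 and 117 TPM in nonDEN-L-WD. It was at 145, 196, 198 and 182 TPM in DEN-L-CD, at 79.3 to 204 TPM in peritumoral liver (median 169) and at 72.7 to 372 TPM in tumors (median 270.1). In 5 tumors Fads1 was above every peritumoral library, and tumor replicate 5 was the lowest of all 25. Tumors and peritumoral liver differed by 0.59 ± 0.24 for Fads1 and 0.57 ± 0.25 for Fads2 on the log2 scale (edgeR, adjusted p = 0.0584 and 0.0729). Without tumor replicate 5 the values were 0.79 and 0.77, and both passed (0.000667 and 0.0021), which brought the genes that changed between tumors and peritumoral liver from 5 to 7. Both passed with DESeq2 as well (0.0357 and 0.0482).

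Fads2 over Fads1 in TPM was 1.87 ± 0.19 (SD, n = 3) in nonDEN-L-CD, 2.65 ± 0.20 (n = 4) in nonDEN-L-WD, 2.18 ± 0.12 (n = 4) in DEN-L-CD, 2.45 ± 0.21 (n = 8) in peritumoral liver and 2.42 ± 0.20 (n = 6) in tumors. Tumor replicate 5, with the lowest level of each, is among tumors whose ratios ran from 2.09 to 2.62. No test of these ratios was made.

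Elovl5, which lengthens the products of Fads2, was at 226, 373 and 281 TPM in nonDEN-L-CD, at 488, 439.9, 503 and 232 TPM in nonDEN-L-WD and at 298, 373, 342 and 329 TPM in DEN-L-CD. It ran from 121 to 593 TPM in peritumoral liver (median 346) and from 121 to 500.5 TPM in tumors (median 296). Elovl2, which makes the longest chains on the way to docosahexaenoic acid, was at 227, 321 and 283 TPM in nonDEN-L-CD, 295, 286, 268 and 229.6 TPM in nonDEN-L-WD and 261, 264, 282 and 252 TPM in DEN-L-CD. It ran from 142 to 289 TPM in peritumoral liver (median 252) and from 123 to 426 TPM in tumors (median 277). In TPM the groups overlapped for both genes, while in normalized counts all peritumoral libraries were below all nonDEN-L-WD and all DEN-L-CD libraries for Elovl2. The ratio of Elovl5 to Elovl2 in TPM was 1.05 ± 0.10 (SD, n = 3) in nonDEN-L-CD, 1.52 ± 0.37 (n = 4) in nonDEN-L-WD, 1.27 ± 0.12 (n = 4) in DEN-L-CD, 1.45 ± 0.63 (n = 8) in peritumoral liver and 1.08 ± 0.19 (n = 6) in tumors. The log2 differences between tumors and peritumoral liver were -0.31 ± 0.33 for Elovl5 (edgeR, adjusted p = 0.491) and 0.14 ± 0.19 for Elovl2 (adjusted p = 0.622). Across the other 5 comparisons Elovl5 lay between -0.77 and 0.36 and Elovl2 between -0.48 and -0.10, and none passed. Elovl5 passed between untreated WD liver and tumors without tumor replicate 3 (-0.99, adjusted p = 0.0377), and Elovl2 between DEN-L-CD and peritumoral liver with only both groups in the fit (-0.48, 0.049).

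The order of the 10 genes by level was similar at its ends in all groups and moved in its middle. Scd1 came first, Fads2, Elovl5, Elovl2 and Fads1 took the next ranks, and Elovl7 came last. In nonDEN-L-CD the ranges of Elovl5, Elovl2 and Fads2 overlapped from neighbor to neighbor, as did those of Fads1 and Elovl3, while Elovl6, Elovl1, Scd2 and Elovl7 followed without overlap. In tumors Scd2 (mean 75.6 TPM) stood above Elovl1 (50.3), Elovl6 (33.6) and Elovl3 (12.2), although the ranges of Scd2 and Elovl1 overlapped, as did those of Elovl3 and Elovl7. Without tumor replicate 5 Elovl7 ran from 2.44 to 3.67 TPM, below every Elovl3 value.

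Within groups, the 10 genes fell along a few shared patterns, described over 25 libraries by the Pearson r of log2 CPM after group means were subtracted. These libraries share depth and tissue composition, so that r is a description only. Fads1 and Fads2 had the highest r (0.97), followed by Elovl5 and Scd1 (0.93) and Elovl2 and Fads1 (0.91). Elovl1 and Scd2 had an r of 0.83. Elovl3 and Scd2, whose group means moved in opposite directions, had an r of 0.02, so that within groups neither followed the other. Elovl7 had values of -0.42 to -0.44 with Fads1, Fads2 and Elovl2, which were between -0.09 and -0.03 without tumor replicate 5, and of -0.43 with Elovl3, which was -0.35 without it.

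**Figure D4:**
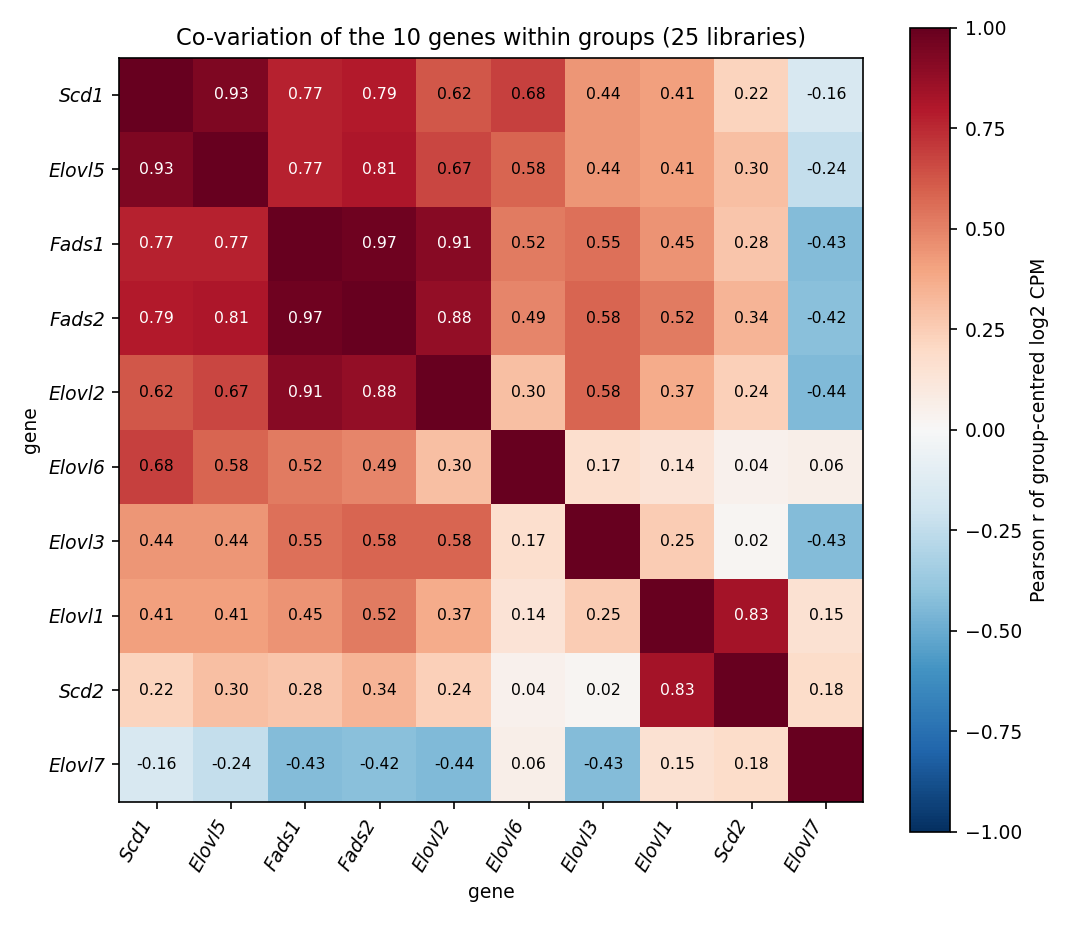
Pearson r of each pair among the 10 genes over 25 libraries, from log2 CPM with group means subtracted, colored from -1 (blue) to 1 (red) with the value printed in each cell. Scd1, Elovl5, Fads1, Fads2 and Elovl2 form a red block (0.62 to 0.97), Elovl1 and Scd2 form a pair (0.83), and Elovl7 is pale or blue with most genes.

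Among 9946 other genes, the one nearest to each gene by this measure was Dbi, the acyl-CoA binding protein, for both Elovl5 (r = 0.92) and Scd1 (0.89), and Fasn, the fatty acid synthase, for Elovl6 (0.92). H2-Q10, a secreted class I molecule of liver, was nearest to Fads1 (0.91) and Fads2 (0.90). Scd2 was nearest to Itih5 (0.93), which binds hyaluronan, and Elovl1 to Apoc2 (0.81), the activator of lipoprotein lipase. Elovl7 was nearest to Slc7a11 (0.85), the cystine transporter, Elovl2 to Gabbr2 (0.87), a receptor subunit for GABA, and Elovl3 to Myh1 (0.75), a muscle myosin. Without tumor replicate 5 these values lay between 0.75 and 0.93.

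Of 7 other elongases and desaturases, 5 were tested, and Fads3 rose between peritumoral liver and tumors (1.18 ± 0.26, edgeR, adjusted p = 0.00102), from a mean of 1.31 to 3.32 TPM, whereas the other 4 did not pass and 19.5% of all tested genes were higher. Degs1, which desaturates ceramides, rose with DEN on CD (0.24 ± 0.09, adjusted p = 0.0481), between untreated WD liver and peritumoral liver (0.21 ± 0.07, 0.0451) and between untreated WD liver and tumors (0.35 ± 0.07, 0.000451), where 9.12%, 7.5% and 25.9% of all tested genes were higher. The group's median log2 difference between peritumoral liver and tumors was 0.13, beside 0.01 over all genes.

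Each elongase works in a cycle with a reductase, a dehydratase and a second reductase. Of 6 such partners, tumors differed from peritumoral liver in 2, the dehydratases Hacd2 (0.26 ± 0.08, edgeR, adjusted p = 0.00868) and Hacd1 (-0.46 ± 0.10, 0.000782), where 37.7% of all tested genes changed, and the group's median was -0.04. Hacd4 was higher in peritumoral liver than in DEN-L-CD (1.02 ± 0.22, 0.00727) and than in untreated WD liver (0.89 ± 0.22, 0.0124). None of the 6 changed with WD in untreated liver or with DEN on CD (edgeR), where 23.2% and 21.3% of all tested genes did. Against untreated WD liver, tumors were higher in 2 of them and lower in 3 (49.0% of all tested genes changed), among them Hsd17b12, the ketoacyl reductase of the cycle (-0.47 ± 0.12, 0.00205).

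Desaturases draw electrons from cytochrome b5 and its reductases. Of 5 such genes tested, tumors had less Cyb5a (-0.59 ± 0.09, edgeR, adjusted p = 1.57e-05) and Cyb5b (-0.57 ± 0.14, 0.00217) and more Cyb5r1 (0.88 ± 0.11, 3.1e-06) than peritumoral liver, where 37.7% of all tested genes changed, with a group median of 0.07. Cyb5a, the abundant form, ran from 1766 to 2409 TPM in peritumoral liver and from 1353 to 1782 TPM in tumors. It was higher with WD in untreated liver (0.44 ± 0.12, adjusted p = 0.0109), the only 1 of the 5 to pass there, where 23.2% of all tested genes changed.

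Of 9 tested genes of fatty acid synthesis, which supplies palmitate, none changed with WD in untreated liver (edgeR), where 23.2% of all tested genes did, and 3 were lower in tumors than in peritumoral liver, where 18.1% of all tested genes were lower, with a median of -0.23: Thrsp, a lipogenic regulator (-1.27 ± 0.32, adjusted p = 0.00339), Me1, the cytosolic malic enzyme (-0.92 ± 0.30, 0.0194), and Mcat of mitochondrial synthesis (-0.23 ± 0.07, 0.0112). Fasn differed by 0.29 ± 0.36 (adjusted p = 0.565). Thrsp rose with DEN on CD (1.76 ± 0.46, adjusted p = 0.00921), and Acss2, an acetyl-CoA synthetase, was lower in peritumoral liver than in DEN-L-CD (-1.06 ± 0.26, 0.0129).

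Of 14 regulators of lipid synthesis, 5 changed with WD in untreated liver (2 higher, 3 lower), where 23.2% of all tested genes changed. Srebf1, which encodes SREBP-1, rose 2.43 ± 0.41 on the log2 scale (edgeR, adjusted p = 0.000278), from 27.1 ± 2.95 TPM (SD, n = 3) to 148 ± 57.4 TPM (n = 4), and Pparg rose 2.02 ± 0.29 (5.78e-05). Both also rose with DEN on CD (2.03 ± 0.40, adjusted p = 0.0012, and 1.48 ± 0.29, 0.0011), where 6 of 14 changed (2 higher, 4 lower) beside 21.3% of all genes, and both passed the interaction of DEN with diet (-1.80 ± 0.49, 0.0257, and -1.31 ± 0.36, 0.0255). Between peritumoral liver and tumors 4 of 14 changed, beside 37.7% of all genes, Srebf2 upward (0.57 ± 0.09, adjusted p = 4e-05) and 3 downward, among them Mlxipl, which encodes ChREBP (-0.52 ± 0.10, 0.000299), and Rxra (-0.28 ± 0.07, 0.00165), with a median of -0.13.

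Peroxisomes shorten very long chains, opposite to the elongases. Of 9 such genes, 7 were lower and 1 higher in tumors than in peritumoral liver (median -0.62), where 18.1% of all tested genes were lower and 19.5% higher, among them Scp2 (-0.92 ± 0.08, edgeR, adjusted p = 4.17e-08), a thiolase and sterol carrier, and Hsd17b4 (-0.62 ± 0.10, 5.03e-05), which carries out middle steps of the chain shortening. Against untreated WD liver the counts were the same, with a median of -0.88, where 23.1% of all genes were lower and 25.9% higher. With WD in untreated liver 4 of the 9 rose and none fell (median 0.37), where 11.2% of all genes were higher, among them the transporter Abcd2 (2.45 ± 0.59, edgeR, adjusted p = 0.00497).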

How the data were processed

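RNA of 25 liver and tumor samples was sequenced from a single end. The authors aligned reads to GRCm38 with STAR and RSEM after FastQC, and each library has its own deposited file. RSEM's expected counts, deposited by the authors, are estimated and not normalized. The authors' TPM values are corrected for gene length and sum to a fixed total per library. The authors' FPKM values are scaled to gene length and mapped reads and were used as an alternative for the Scd2 share. The annotation release and the use of strand are not given in the sources used here.

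After rounding, expected counts of all 5 groups entered 1 quasi-likelihood fit (glmQLFit, glmQLFTest) with TMM scaling in edgeR 4.0.16 (R 4.3.3), over 15625 genes kept by filterByExpr at a minimum count of 10, with Benjamini-Hochberg adjustment. SE is the absolute log2 fold change over the square root of F. "At least 2-fold" means changed and with a log2 fold change of 1 or more in size. Normalized counts use TMM library sizes. The procedure was tested on simulated data. Symbols were found for 48349 of 48795 genes, and coordinates are those of GENCODE M21 on GRCm38. Promoters are RefSeq's 250 bases before the start. For correlations, log2 CPM had a prior count of 2.

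The members, and the lists of other elongases and desaturases, elongation cycle partners, electron donors, fatty acid synthesis, regulators, peroxisomal, clock, sex-biased and marker genes, were chosen with earlier results of these data known. Per list and comparison, up to 3 genes with the smallest adjusted p at or under 0.05 could be named, and for each member the gene with the highest r among those with a mean of at least 100 normalized counts. Fasn, Krt19 and Spp1 were also named, after their values were seen. Some genes that this rule would name are not reported here. Alternatives were DESeq2 1.42.0, its size factors, no filter, only the groups compared, limma 3.58.1 on log2(TPM + 1), a replicate block and each library left out. No 2 libraries of the same group agreed within sampling noise. Figures and summaries used Python 3.11.15, NumPy 2.4.6, pandas 2.3.3, SciPy 1.17.1 and Matplotlib 3.10.9.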

Additional observations from a re-analysis of the deposited data

Results flagged for a closer look

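In 3 of 40 groups of 4 to 8 libraries tested, 1 library's TPM lay further from the others than Dixon's 95% critical value allows, and chance alone gives about 1 in 20 groups. Elovl7 was at 33.35 TPM in tumor replicate 5, while the other tumors held 2.44 to 3.67 TPM. This library also had the lowest Elovl2, Elovl5, Elovl6, Scd1, Scd2, Fads1 and Fads2 of the tumors and the lowest summed hepatocyte markers of all libraries (38400 TPM). Elovl7 was at 1.77 TPM in DEN-L-CD replicate 3, while the others of that group held 0.09 to 0.27 TPM. Scd1 was at 3200.79 TPM in nonDEN-L-WD replicate 4, while the others of that group held 7323 to 7949.6 TPM. This library also had the lowest value of its group for Elovl1, Elovl2, Elovl5, Elovl6, Elovl7, Scd2, Fads1 and Fads2.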

How the results depend on the processing

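Of 70 fold changes (10 genes, 7 tests), 17 passed the threshold, and 13 of these passed under every alternative that gave a p. The exceptions were Elovl1 with WD in untreated liver and with DEN on CD, Elovl3 with DEN on CD, and Scd1 between tumors and peritumoral liver. Log2(TPM + 1) values moved the median of all genes to 0.16, 0.23 and 0.26 for peritumoral liver against untreated WD liver, peritumoral liver against DEN-L-CD and tumors against untreated WD liver, and to 0.15 for the interaction.

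For genes that changed with WD in untreated liver (1), DESeq2 gave 2, no filter 0, only the groups compared 3 and log2(TPM + 1) 0, and only the groups compared gave 1 at least 2-fold (0 as reported). For DEN on CD, log2(TPM + 1) gave 1 at least 2-fold (2 as reported). For peritumoral liver against DEN-L-CD (1), DESeq2 gave 2, only the groups compared 2 and log2(TPM + 1) 3, and DESeq2 gave 2 at least 2-fold (1 as reported). For the interaction (0), only the groups compared gave 1, of which 1 at least 2-fold, and log2(TPM + 1) gave 1. Between peritumoral liver and tumors, Elovl6 also passed with DESeq2 and with only the groups compared, and Fads1 and Fads2 with DESeq2. Scd1 lost its call there on log2(TPM + 1) values and with only the groups compared. Elovl1 passed between untreated WD liver and peritumoral liver under 1 of 18 alternatives. This list does not hold every count that moved.

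Replicate numbers are shared between groups, but nothing says that they mark a mouse or a day, and same-numbered libraries deviated together with a mean r of -0.049 to 0.149. With the replicate block, 3 genes changed with WD in untreated liver (1 at least 2-fold), 1 with DEN on CD (1 at least 2-fold), 2 between DEN-L-CD and peritumoral liver (2 at least 2-fold) and 2 in the interaction (1 at least 2-fold). Scd1 between tumors and peritumoral liver (-1.21, adjusted p = 0.128), Elovl3 with DEN on CD (-1.03, 0.0594) and Elovl1 with WD in untreated liver (-0.25, 0.0681) and with DEN on CD (-0.36, 0.0936) did not pass with the block. Scd1 (0.88, 0.0136), Scd2 (1.22, 0.0132) and Fads2 (0.77, 0.0136) with WD in untreated liver, Scd2 between DEN-L-CD and peritumoral liver (1.41, 0.0157), and Elovl1 (0.44, 0.0431) and Fads2 (-1.15, 0.0483) in the interaction did.

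With 1 library left out, counts of changed genes ran from 0 to 1 with WD in untreated liver, from 1 to 3 with DEN on CD (1 to 2 at least 2-fold, the lowest without nonDEN-L-CD replicate 1), from 1 to 2 between DEN-L-CD and peritumoral liver (0 to 2 at least 2-fold), from 5 to 7 between tumors and peritumoral liver (3 to 4 at least 2-fold) and from 0 to 1 in the interaction. Between tumors and untreated WD liver the count ran from 5 to 6.

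Signs turned for 10 of the 70 fold changes, none of which passed the threshold. With log2(TPM + 1), Scd1 between DEN-L-CD and peritumoral liver was 0.04, Elovl6 between untreated WD liver and tumors 0.10 and Elovl7 in the interaction 0.08. With 1 library left out, Elovl6 ran from -0.21 to 0.11 with DEN on CD and from -0.02 to 0.51 between untreated WD liver and peritumoral liver. Between DEN-L-CD and peritumoral liver, Elovl7 ran from -0.21 to 1.98 and Scd1 from -0.20 to 0.09. Elovl2 ran from -0.05 to 0.30 between peritumoral liver and tumors, and between untreated WD liver and tumors Fads1 ran from -0.01 to 0.35 and Fads2 from -0.17 to 0.23. In the interaction Elovl7 ran from -1.59 to 0.84 and Scd2 from -0.01 to 0.60. The cause of these changes was not tested. Depth limits Elovl7, with 7 to 22 expected counts in nonDEN-L-CD.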
